A study of Mus musculus with 8 samples.

Results

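The thick filament of the heart is built from myosin, and the transcripts described here are 10 genes that encode its parts: the heavy chains Myh6, Myh7 and Myh7b, the light chains Myl2, Myl3, Myl4 and Myl7, the myosin binding proteins Mybpc3 and Mybpc2, and the cardiac light chain kinase Mylk3. They were taken by gene name from a table of 56748 genes, and all 10 were present and passed the filter on low counts. A sarcomeric myosin molecule has a pair of heavy chains, each carrying an essential and a regulatory light chain. In the adult mouse ventricle the fast heavy chain alpha (Myh6) prevails over the slow chain beta (Myh7), and a rise of beta relative to alpha is a well known mark of the pressure-loaded or failing rodent heart. Ventricles use the light chains Myl2 and Myl3, and atria use Myl7 and Myl4.

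Polyadenylated RNA of 8 mouse hearts was sequenced 7 days after transverse aortic constriction, a narrowing of the aortic arch that loads the left ventricle with pressure. Of these, 4 hearts were labelled as cardiomyocyte-specific Smad7 knockouts (CMS7KO), and 4 were Cre-positive controls (ACRE). In both groups the Cre is expressed from a Myh6 promoter, and every heart was constricted, so no unloaded heart enters these comparisons. The labels call the mice C56BL, give them an age of 3 to 4 months and call the samples independent. Hearts 1 and 2 of either genotype carry the label male, and hearts 3 and 4 the label female.

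Libraries held 13115418 to 17147942 counted reads in CMS7KO and 12920435 to 17199600 in ACRE. On the first principal component of log2 expression ACRE 2 and ACRE 4 scored 63.6 and 76.4, and the other 6 libraries scored -48.0 to -11.3, and values without these 2 libraries stand beside the results they move. Smad7, the targeted gene, stood at 30.9, 41.8, 38.9 and 43.1 CPM (read counts scaled to library size with TMM factors) in CMS7KO 1 to 4 and at 34.6, 34.4, 32.6 and 23.9 CPM in ACRE 1 to 4. Reads over the whole gene in heart tissue were thus not lower in the libraries labelled CMS7KO, so each direction by genotype rests on the labels. Xist was at 836 CPM in CMS7KO 4 and 362 CPM in ACRE 4 and below 1 CPM elsewhere, and the Y-linked Ddx3y was at 84.1 CPM in CMS7KO 3 and 88.9 CPM in ACRE 3, which are labelled female. Bulk tissue cannot tell fewer cells of a type from less RNA per cell. The cardiomyocyte markers summed to 21470 to 33429 CPM in CMS7KO, to 27782 and 33447 CPM in ACRE 3 and 1, and to 48371 and 57817 CPM in ACRE 2 and 4. Of these 12 markers 0 passed the test by genotype and 11 had a log2 fold change below 0.

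The heavy chain genes hold microRNAs in their introns, and these are shown because they tie the heavy chains together by sequence. Each mature sequence from RefSeq (GRCm38.p6) is printed 5′ to 3′ with its seed, bases 2 to 8, in capitals.
mmu-miR-208a-3p, within Myh6 (chr14:54949072-54949093, minus strand): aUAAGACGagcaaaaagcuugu
mmu-miR-208b-3p, within Myh7 (chr14:54975710-54975731, minus strand): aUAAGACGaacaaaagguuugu
mmu-miR-499-5p, within Myh7b (chr2:155622893-155622913, plus strand): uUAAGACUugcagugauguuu
The seed UAAGACG is shared by the microRNAs within Myh6 and Myh7, and that within Myh7b has UAAGACU. Mature microRNAs were not measured in these libraries of polyadenylated RNA.

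The promoters of Myh6, Myh7 and Myl7 are shown because the Cre is named for the first and because the others belong to the ratios given below. Each run is the 250 bases before the annotated start of the gene itself, from RefSeq promoters on GRCm38.p6. The promoter sequence of the Cre construct was not examined. For Myh7 the table holds 2 starts and the more downstream was used. Capitals mark matches, on either strand, to 6 motifs searched. These were the Tead core GGAATG, the Gata motif written as AGATAA, the hormone receptor element spelled AGGTCA, the Smad motif that reads CAGAC, the CArG box of serum response factor, and the Mef2 motif.
Myh6 (chr14:54966608-54966857, minus strand): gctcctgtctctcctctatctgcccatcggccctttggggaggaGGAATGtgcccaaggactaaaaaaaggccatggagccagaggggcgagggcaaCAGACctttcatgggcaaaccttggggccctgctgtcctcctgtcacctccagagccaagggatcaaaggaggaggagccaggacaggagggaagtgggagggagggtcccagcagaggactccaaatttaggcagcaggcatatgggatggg
Myh7 (chr14:54994550-54994799, minus strand): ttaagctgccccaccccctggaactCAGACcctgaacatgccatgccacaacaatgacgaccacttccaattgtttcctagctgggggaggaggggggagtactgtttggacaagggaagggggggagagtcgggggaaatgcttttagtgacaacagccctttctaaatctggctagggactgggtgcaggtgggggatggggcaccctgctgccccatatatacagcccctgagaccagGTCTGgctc
Myl7 (chr11:5898783-5899032, minus strand): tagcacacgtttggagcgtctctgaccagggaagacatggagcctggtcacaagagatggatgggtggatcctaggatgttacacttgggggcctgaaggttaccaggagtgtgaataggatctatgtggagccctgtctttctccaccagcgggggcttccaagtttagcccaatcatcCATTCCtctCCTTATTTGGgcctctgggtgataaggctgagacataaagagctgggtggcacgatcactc
These 10 genes have 13 windows. GGAATG was found in 6 of these windows (12.6% of all 32851 promoter windows hold it) and CAGAC in 7 (42.2%), each for 6 genes. AGATAA was found in 3 of the 13 windows (9.99% of all windows), for 3 genes, and AGGTCA in 2 (14.0%), for 2 genes. The CArG box was found in 2, for Myl3 and Myl7 (1.47%), and the Mef2 motif in 1, for Mybpc3 (2.92%). A match of letters is a description and not a bound site.

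Per kilobase of gene length, the 10 transcripts spanned more than 3 orders of magnitude in level. Over the 8 libraries Myh6 averaged 3075 ± 1720 CPM per kilobase, Myl2 3015 ± 552, Myl3 2460 ± 395 and Mybpc3 1021 ± 309 (SD). These are the major heavy chain, both ventricular light chains and cardiac myosin binding protein C, which binds the backbone of the thick filament and actin. Myh7 (77.2 ± 30.8 CPM per kilobase), Mylk3 (66.0 ± 45.9) and Myh7b (60.9 ± 17.7) formed a middle group, Mybpc2, the fast skeletal binding protein, followed at 16.9 ± 9.95, and Myl4 (0.994 ± 0.316) and Myl7 (0.884 ± 0.931) came last. Myl2 stood above Myl3 and Myl3 above Mybpc3 in 8 of 8 libraries, and Mybpc3 above Myh7 and Mybpc2 above Myl4 likewise. Neighbours in the order were not always apart: Myh6 exceeded Myl2 in 2 libraries only, ACRE 2 and ACRE 4, Mylk3 exceeded Myh7b in the same number, and Myl4 exceeded Myl7 in 6.

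**Figure D1:**
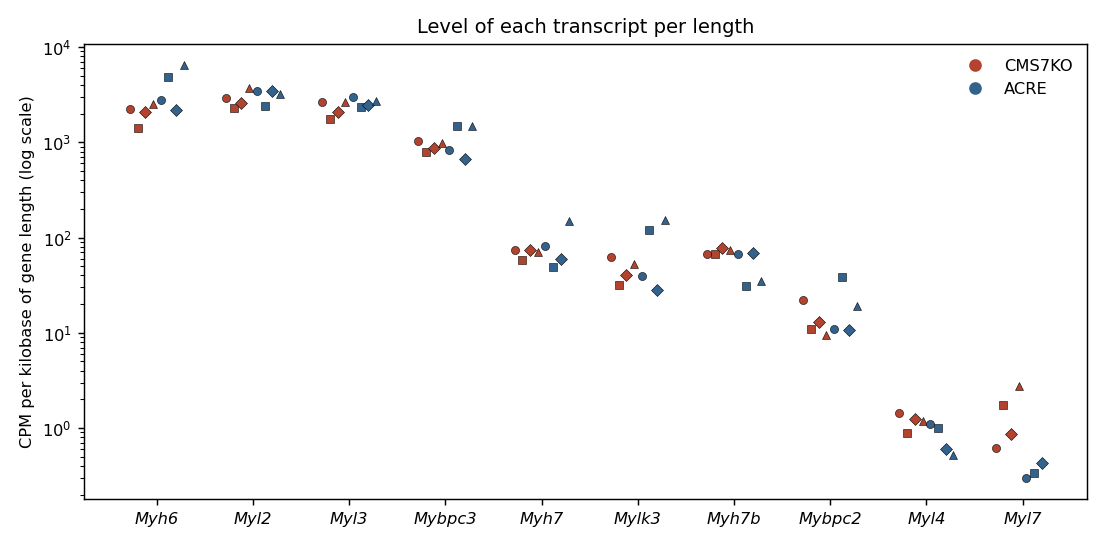
Level of each transcript in CPM per kilobase of gene length on a log axis, genes ordered by their mean over the 8 libraries, with CMS7KO left of ACRE within each gene and circles, squares, diamonds and triangles for replicates 1, 2, 3 and 4. Myh6, Myl2, Myl3 and Mybpc3 lie above the rest, Myh7, Mylk3 and Myh7b follow, and the atrial chains Myl4 and Myl7 lie near 1. Myl7 in ACRE 4 had 0 reads and is not drawn.

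Both atrial light chains were nearly absent although the labels call the tissue whole heart. Myl7 had 5, 20, 8 and 22 reads in CMS7KO 1 to 4, against 3, 3, 4 and 0 reads in ACRE 1 to 4, beside 78606 to 98315 reads of its ventricular counterpart Myl2 in CMS7KO and 65873 to 115416 in ACRE. Sln, the sarcolipin gene of atrial muscle, had 0 or 1 read in every library, and Bmp10, a growth factor gene of atrial cardiomyocytes, had 0 to 2 reads. Other genes of the atrial list were present: Kcnk3 stood at 90.3 to 210 CPM in CMS7KO and 102 to 319 CPM in ACRE, and Kcnj3 at 10 to 27.0 CPM in CMS7KO and 17 to 87.7 CPM in ACRE. Nr2f2 stood at 23.6 to 29.8 CPM in CMS7KO and 14.7 to 39.9 CPM in ACRE. Dkk3 stood at 17.4 to 35.4 CPM in CMS7KO and 11.2 to 16.1 CPM in ACRE, without overlap, as 5.42% of tested genes did in that direction. These 4 were chosen after their values were seen. All 12 atrial markers were in the table and 10 were tested, of which 0 passed, with 5 log2 fold changes above 0 and 5 below. Their summed level was 819 to 1725 CPM in CMS7KO and 462 to 1120 CPM in ACRE. Nppa, the atrial natriuretic peptide gene that loaded ventricles also express, made up 486 to 1512 CPM of it in CMS7KO and 203 to 688 CPM in ACRE.

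The genotype comparison asked whether cardiomyocyte loss of Smad7, as labelled, goes with other levels of these transcripts in the loaded heart. No member passed an adjusted p of 0.05 in edgeR's quasi-likelihood test, where 6 of 16780 genes did (0.0358%), 3 of them higher (0.0179%) and 3 lower (0.0179%). Adjusted p ranged from 0.282 to 0.82, 3 log2 fold changes were above 0 and 7 below, and their median was -0.24 against -0.01 for all genes tested. Without ACRE 2 and 4 these counts turned to 6 above 0 and 4 below, with a median of 0.18, and 0 members passed. An unadjusted p under 0.05 was found for Myl7, with the higher value in CMS7KO (7.12% of all genes were higher at that level), and for Myh6, with the lower value (8.2%). Myl7 had passed the filter on low counts through CMS7KO 2 and 4 only. Together the 10 transcripts took 2.47% to 3.5% of all reads in CMS7KO and 3.22% to 5.17% in ACRE, with exact binomial 95% intervals within 0.0121 percentage points of each share. Of the summed markers of each cell type, only those of fibroblasts and of macrophages did not overlap between the groups. The activated fibroblast sum overlapped, at 969 to 2885 CPM in CMS7KO and 713 to 1026 CPM in ACRE. The 9 fibroblast markers summed to 4068 to 7031 CPM in CMS7KO and 3320 to 3813 CPM in ACRE, and the 8 macrophage markers to 830 to 1004 CPM in CMS7KO and 429 to 751 CPM in ACRE. None of these markers passed the test singly, and their part in the members' values was not tested.

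**Figure D2:**
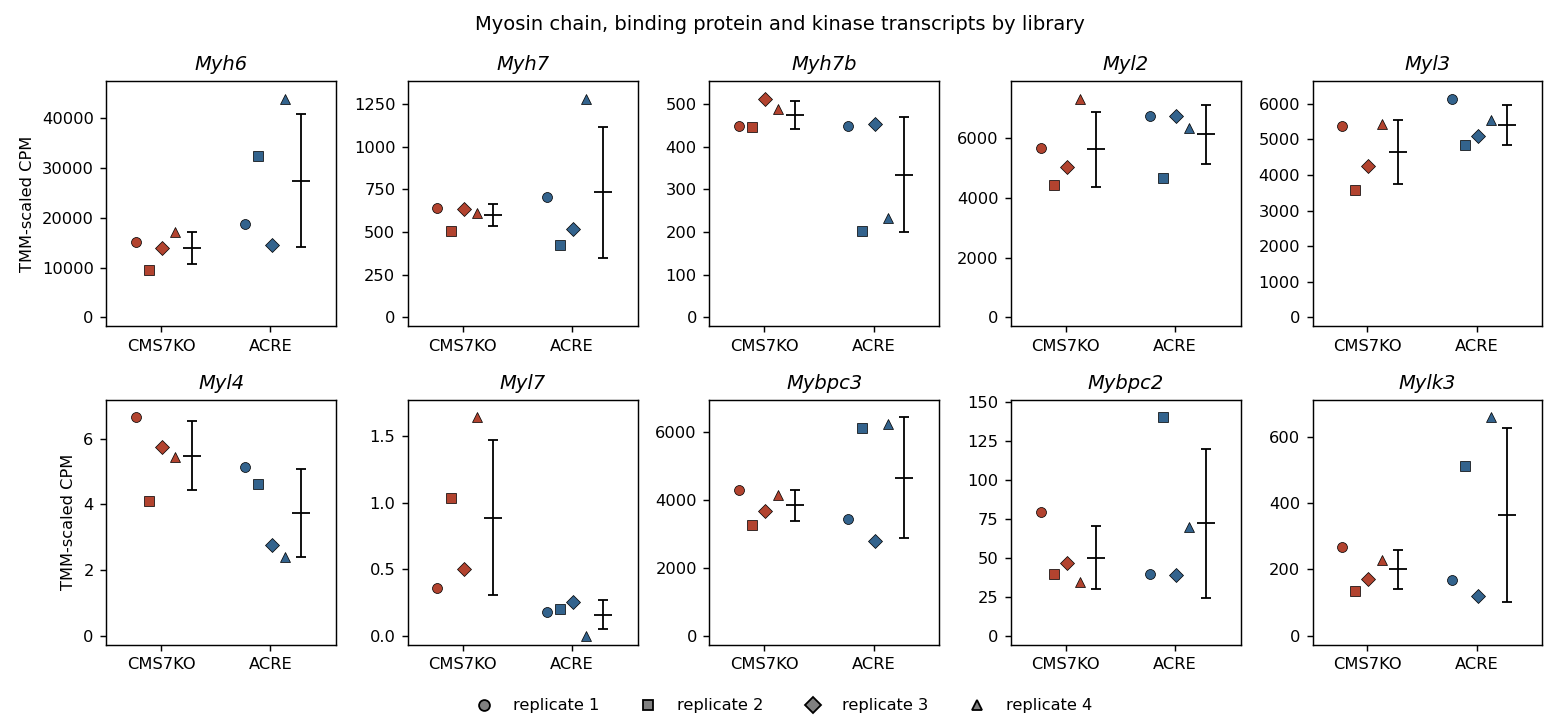
TMM-scaled CPM of each transcript in every library, CMS7KO left of ACRE, with marker shapes for replicates 1 to 4 and bars for mean ± SD (n = 4 each). ACRE 2 and ACRE 4 stand above the other 6 libraries for Myh6, Mybpc3 and Mylk3 and below them for Myh7b, and only for Myl7 do the groups not overlap.

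Myh6, the alpha heavy chain (ENSMUSG00000040752, chromosome 14, 55179378 to 55204384, minus strand), was the most abundant of the set in raw reads. It stood at 15136, 9561, 13896 and 17056 CPM in CMS7KO 1 to 4 and at 18803, 32453, 14562 and 43995 CPM in ACRE 1 to 4. CMS7KO 2 was lowest, ACRE 2 and 4 were far above all others, and the groups overlapped through ACRE 3. The means were 13913 ± 3179 CPM in CMS7KO and 27453 ± 13412 CPM in ACRE (SD, n = 4 each). On the log2 scale the difference was -0.99 (SE 0.38, edgeR adjusted p = 0.307). The fold of 0.505 had a 95% interval of 0.278 to 0.916. Without ACRE 2 and 4 the log2 fold change was -0.28 (edgeR adjusted p = 0.798), and in that fit 0.979% of all genes passed. With no filter on low counts Myh6 passed (edgeR adjusted p = 0.00615), in a fit that called 1368 of 32514 genes (4.21%).

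Myh7, the beta heavy chain (ENSMUSG00000053093, chromosome 14, 55208141 to 55232083, minus strand), lies next to Myh6. It stood at 638, 503, 635 and 614 CPM in CMS7KO 1 to 4, against 708, 426, 516 and 1282 CPM in ACRE 1 to 4. The CMS7KO libraries lay close together and within the range of ACRE, in which ACRE 4 was highest and ACRE 2 lowest. The log2 fold change was -0.26 (SE 0.32, edgeR adjusted p = 0.7) and turned to 0.10 (edgeR adjusted p = 0.922) without ACRE 4. Of 50-base words in the longest coding transcript of Myh7, 22.2% also occur in Myh6 transcripts, and 22.6% the other way, so reads from these stretches may be assigned to either gene or dropped. Myh7 also overlaps the antisense RNA Mhrt over 3780 bases, and no source used here gives the strand setting of the counting.

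The Myh7 to Myh6 ratio, which needs no library scaling, was mostly higher in CMS7KO but did not pass its test. It came to 4.22, 5.26, 4.57 and 3.60 Myh7 reads per 100 Myh6 reads in CMS7KO 1 to 4, and to 3.76, 1.31, 3.54 and 2.91 in ACRE 1 to 4. In CMS7KO 3 libraries were above every ACRE library, CMS7KO 4 lay between ACRE 1 and ACRE 3, and ACRE 2 was lowest by far. The alpha chain prevailed in all 8 hearts. The mean was 4.41 ± 0.694 in CMS7KO and 2.88 ± 1.11 in ACRE (SD, n = 4 each). Divided by gene length, the ratio was 3.44 ± 0.542 per 100 in CMS7KO and 2.25 ± 0.865 in ACRE. The mean log2 ratio was higher by 0.71 in CMS7KO (two-sided exact permutation p = 0.0571, also 0.0571 adjusted over 3 ratios, smallest possible 0.0286). Without ACRE 2 the difference in mean log2 ratio was 0.37 (exact permutation p = 0.0857), without ACRE 2 and 4 it was 0.26 (0.267 over 15 assignments), and without ACRE 1 it was 0.87 (0.0286). ACRE 2 had high Myh6 with the lowest Myh7, while ACRE 4 was the highest library for both.

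**Figure D3:**
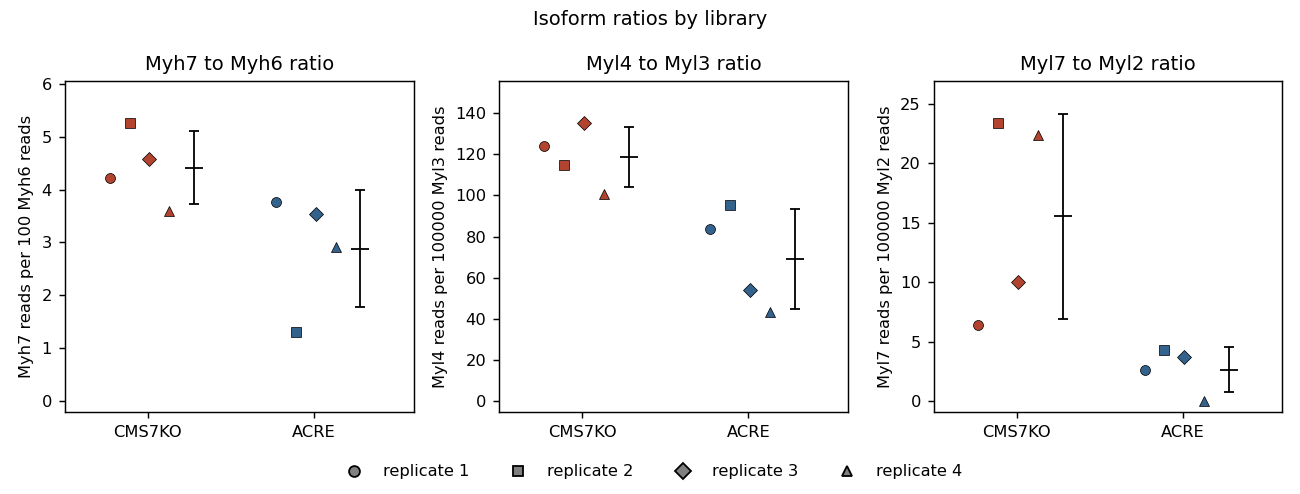
Ratios of read counts in every library for the Myh7 to Myh6 pair (per 100 reads) and for the atrial to ventricular light chain pairs Myl4 to Myl3 and Myl7 to Myl2 (per 100000 reads), CMS7KO left of ACRE, with marker shapes for replicates 1 to 4 and bars for mean ± SD (n = 4 each). The heavy chain ratio overlaps between groups at 3.60 in CMS7KO 4 and 3.76 in ACRE 1, and both light chain ratios are higher in all 4 CMS7KO libraries.

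Myh7b (ENSMUSG00000074652, chromosome 2, 155453132 to 155476227, plus strand) encodes an ancient slow-type heavy chain. It stood at 449, 446, 513 and 489 CPM in CMS7KO 1 to 4, against 448, 203, 453 and 232 CPM in ACRE 1 to 4. The other 6 libraries lay within 446 to 513 CPM while ACRE 2 and ACRE 4 were lower, the reverse of their place for Myh6. The log2 fold change was 0.50 (SE 0.29, edgeR adjusted p = 0.417) and 0.07 without ACRE 2 and 4.

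The ventricular light chains varied least among the members. Myl2, the regulatory chain (ENSMUSG00000013936, chromosome 5, 122239014 to 122251535, plus strand), stood at 5688, 4433, 5054 and 7337 CPM in CMS7KO 1 to 4 and at 6744, 4676, 6755 and 6351 CPM in ACRE 1 to 4, a 1.66-fold range over the 8 libraries. Myl3, the essential chain (ENSMUSG00000059741, chromosome 9, 110570929 to 110598866, plus strand), stood at 5366, 3569, 4245 and 5421 CPM in CMS7KO 1 to 4 and at 6148, 4837, 5090 and 5542 CPM in ACRE 1 to 4. The groups overlapped for both, and CMS7KO 2 was lowest for both. The folds were 0.915 for Myl2 (95% interval 0.621 to 1.35) and 0.86 for Myl3 (0.588 to 1.26), with edgeR adjusted p of 0.82 and 0.666. ACRE 2 and 4, high in Myh6, were not high in these chains: their mean was 0.817 times that of ACRE 1 and 3 for Myl2 and 0.924 times for Myl3, against 2.29 times for Myh6.

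The atrial light chains were low throughout and relatively higher in the libraries labelled CMS7KO. Myl4, the atrial essential chain (ENSMUSG00000061086, chromosome 11, 104441489 to 104486579, plus strand), had 92, 79, 91 and 73 reads in CMS7KO 1 to 4 and 88, 69, 44 and 25 reads in ACRE 1 to 4. Its mean was 5.49 ± 1.06 CPM in CMS7KO and 3.73 ± 1.35 CPM in ACRE (SD, n = 4 each; log2 fold change 0.61, SE 0.29, edgeR adjusted p = 0.351). Myl7, the atrial regulatory chain (ENSMUSG00000020469, chromosome 11, 5846637 to 5848782, minus strand), was at 0.361, 1.04, 0.505 and 1.64 CPM in CMS7KO 1 to 4, against 0.175, 0.201, 0.251 and 0 CPM in ACRE 1 to 4. It was the only member with all 4 CMS7KO libraries above ACRE, where 5.42% of tested genes had that order (9.59% in either direction), and the gap was 5 against 4 reads. Only CMS7KO 2 and 4, with 20 and 22 reads, held enough Myl7 reads for the filter on low counts. Myl7 was thus tested only through the group in which it is high, so its order and fold are descriptions. The fold of 5.04 had a 95% interval of 1.47 to 17.2 (edgeR adjusted p = 0.282).

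Against their ventricular counterparts the atrial chains were higher in all 4 CMS7KO libraries. Myl4 came to 124, 115, 135 and 100.5 reads per 100000 Myl3 reads in CMS7KO 1 to 4, and to 83.6, 95.5, 54.2 and 43.5 in ACRE 1 to 4. The mean log2 ratio was higher by 0.83 (two-sided exact permutation p = 0.0286, the smallest that 4 against 4 can give, 0.0429 adjusted over 3 ratios). Myl7 came to 6.36, 23.4, 9.99 and 22.4 reads per 100000 Myl2 reads in CMS7KO 1 to 4, and to 2.60, 4.30, 3.71 and 0 in ACRE 1 to 4, where 0 Myl7 reads allow up to 3 reads. Its mean log2 ratio was higher by 2.43 (exact permutation p = 0.0286, 0.0429 adjusted over 3 ratios). Both were 4 of 4 above the ACRE libraries, an order that 5.42% of single genes also show. The closest libraries lay within counting error of each other. As a share of the pair's reads, Myl4 took 0.1004% in CMS7KO 4 (95% interval 0.0787% to 0.126%) and 0.0954% in ACRE 2 (0.0743% to 0.121%). For Myl7 the shares were 0.00636% in CMS7KO 1 (0.00207% to 0.0148%) and 0.0043% in ACRE 2 (0.000886% to 0.0126%). Myl4 to Myl3 missed the threshold without any 1 of the CMS7KO libraries (exact permutation p of 0.0571 to 0.0857), and Myl7 to Myl2 missed it without ACRE 4 (log2 difference 1.83, exact permutation p = 0.0571), where 0.0286 was possible. Nppa was at 1044 ± 423 CPM in CMS7KO and 406 ± 225 CPM in ACRE (SD, n = 4 each; edgeR adjusted p = 0.187), and its part in these ratios was not tested.

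Mybpc3, cardiac myosin binding protein C (ENSMUSG00000002100, chromosome 2, 90948489 to 90966861, plus strand), stood at 4283, 3271, 3671 and 4141 CPM in CMS7KO 1 to 4 and at 3456, 6129, 2803 and 6253 CPM in ACRE 1 to 4. ACRE 2 and 4 were highest and ACRE 3 lowest, and CMS7KO lay between them. The log2 fold change was -0.28 (SE 0.32, edgeR adjusted p = 0.67) and turned to 0.30 (edgeR adjusted p = 0.684) without ACRE 2 and 4. Mybpc2, the fast skeletal paralog (ENSMUSG00000038670, chromosome 7, 44151123 to 44174080, minus strand), stood at 79.4, 39.9, 46.6 and 34.4 CPM in CMS7KO 1 to 4 and at 39.4, 140, 38.8 and 69.7 CPM in ACRE 1 to 4. The highest library was ACRE 2, and the groups overlapped (log2 fold change -0.51, SE 0.39, edgeR adjusted p = 0.523; 0.32 without ACRE 2 and 4). The defining skeletal muscle genes Myh4, Myod1 and Myog were at 0 reads in all 8 libraries, and Myh1 had at most 2 reads in a library. Other genes of the skeletal list were present. Casq1 stood at 10.8 to 39.9 CPM in CMS7KO and 8.53 to 36.0 CPM in ACRE. Tnnt3 had 29 to 92 reads in CMS7KO and 12 to 55 reads in ACRE. Pvalb had 12 to 22 reads in CMS7KO and 2 to 5 reads in ACRE. It did not overlap between groups, as 5.42% of tested genes did in that direction, and passed the filter through CMS7KO alone. Of the 6 skeletal markers tested 0 passed, with 6 log2 fold changes above 0 and 0 below (median 0.54), while 8294 of 16780 tested genes were above 0. The 13 skeletal markers summed to 2328 to 5731 CPM in CMS7KO and 1059 to 6072 CPM in ACRE, nearly all from Acta1, which heart muscle also expresses.

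Mylk3, the kinase that phosphorylates the ventricular regulatory chain (ENSMUSG00000031698, chromosome 8, 86050932 to 86112974, minus strand), had the widest spread among the abundant members. It stood at 269, 135, 172 and 227 CPM in CMS7KO 1 to 4 and at 169, 511, 121 and 659 CPM in ACRE 1 to 4, a 5.43-fold range. ACRE 2 and 4 were far above the other 6 libraries, at 4.03 times the mean of ACRE 1 and 3. The log2 fold change was -0.86 (SE 0.52, edgeR adjusted p = 0.424) and turned to 0.48 (edgeR adjusted p = 0.57) without ACRE 2 and 4. With no filter on low counts Mylk3 passed (-0.87, edgeR adjusted p = 0.00831), in a fit that called 1368 of 32514 genes (4.21%).

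**Figure D4:**
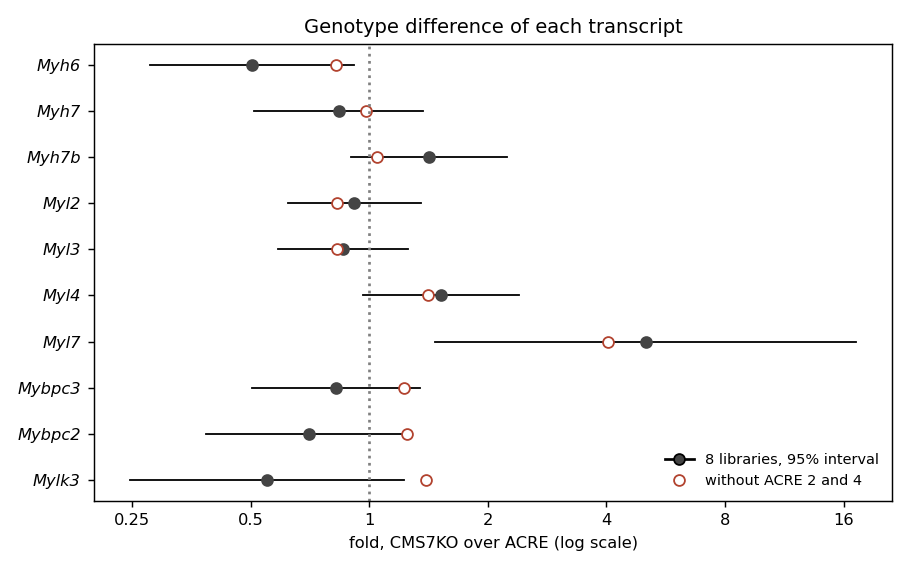
Fold of each transcript, CMS7KO over ACRE, on a log scale, with 95% intervals from the fit of 8 libraries (filled) and the value without ACRE 2 and 4 (open). Mybpc3, Mybpc2 and Mylk3 lie below 1 with all libraries and above 1 without these 2, and Myl7 lies above 1 in both.

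The members differed in how ACRE 2 and 4 stood to ACRE 1 and 3. By their means, Myh6, Mybpc3, Mybpc2 and Mylk3 were 1.98 to 4.03 times as high in ACRE 2 and 4 as in ACRE 1 and 3. Myh7 was 1.40 times as high, but ACRE 2 and 4 stood apart for it, at 426 and 1282 CPM. Myl2, Myl3 and Myl4 lay at 0.817 to 0.924 times, and Myh7b and Myl7 at 0.483 and 0.471 times. For Myl4 too, ACRE 2 and 4 were unlike, at 4.62 and 2.41 CPM. Gene length moved with this split over all genes: ACRE 2 and 4 differed from the other 6 libraries by a median log2 of -0.26 among the 3356 shortest genes (up to 1963 bases) and of 0.08 among the 3356 longest (from 7086 bases). With an offset for GC content and length, 10 of 10 members kept the sign of their log2 fold change and 0 passed. Under it the log2 fold changes were -1.09 for Myh6, 0.34 for Myh7b, -0.42 for Mybpc3 and -0.81 for Mylk3. Endothelial markers summed to 1684 and 2013 CPM in ACRE 2 and 4 and to 2675 to 3764 CPM in the other 6 libraries, and their part in the members' values was not tested.

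**Figure D5:**
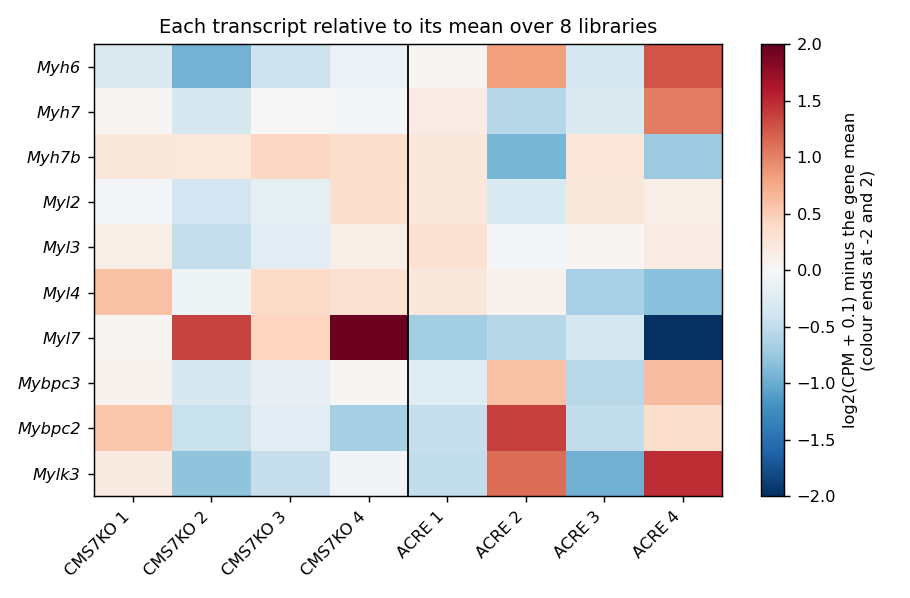
log2(CPM + 0.1) of each transcript minus its mean over the 8 libraries, CMS7KO libraries left of ACRE, red for higher and blue for lower, with colours ending at -2 and 2. ACRE 2 and 4 are red for Myh6, Mybpc3, Mybpc2 and Mylk3 and blue for Myh7b, and Myl7 is lowest in ACRE 4 with 0 reads.

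Genes with a pattern like that of Myh6 were those highest in ACRE 2 and 4. By Pearson's r of log2 CPM over the 8 libraries, among 10952 named genes of at least 5 CPM, the 5 closest were Kcnd2, a potassium channel of the transient outward current (r = 0.997), Bckdhb, a subunit of branched-chain ketoacid dehydrogenase (0.995), Jph2, which couples sarcoplasmic reticulum to the cell membrane (0.993), Acss1, a mitochondrial acetyl-CoA synthetase (0.993), and Cox10, an enzyme of heme A synthesis (0.992). Without ACRE 2 and 4 these r values were 0.982, 0.987, 0.974, 0.998 and 0.959 over 6 libraries. For Myh7 the closest were Cd59a, Fbp2, Nhlrc3, Neb and Il15 (r = 0.981, 0.95, 0.930, 0.930 and 0.912), and without ACRE 2 and 4 these were 0.860, 0.746, 0.634, 0.780 and 0.382. These are descriptions over libraries that share their depth and scaling, with the genes picked for their r.

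Around the thick filament 0 genes of the other lists passed the test by genotype with all 8 libraries, and the values named next are those of the smallest p in each list. Of 9 light chain kinase and phosphatase genes 3 log2 fold changes were above 0 and 6 below (median -0.27), and 4 above 0 and 5 below (median -0.04) without ACRE 2 and 4. Mylk2, the skeletal muscle light chain kinase, was at 5.07, 3.42, 5.24 and 3.43 CPM in CMS7KO 1 to 4, against 0.351, 0.871, 0.188 and 1.35 CPM in ACRE 1 to 4. All 4 CMS7KO libraries were above ACRE, an order that 5.42% of tested genes had. The log2 fold change was 2.69 (edgeR adjusted p = 0.162). Without ACRE 2 and 4 Mylk2 passed (log2 fold change 3.95, edgeR adjusted p = 0.00799), in a fit where 0.979% of all genes did. Mylk4, a kinase related to Mylk3, was at 57.5 ± 18.7 CPM in CMS7KO and 179 ± 145 CPM in ACRE (SD, n = 4 each), and its log2 fold change turned from -1.65 with all libraries to 0.04 without ACRE 2 and 4. Ppp1cb, the catalytic subunit of myosin phosphatase, was at 205 ± 18.9 CPM in CMS7KO and 352 ± 148 CPM in ACRE, and the kinase Dapk3 at 32.2 ± 1.88 CPM in CMS7KO and 25.5 ± 4.31 CPM in ACRE. Their log2 fold changes without ACRE 2 and 4 were -0.14 and 0.18.

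Non-muscle and smooth muscle myosin II genes had a median log2 fold change of 0.04, with 5 of 8 above 0, and of -0.23, with 1 of 8 above 0, without ACRE 2 and 4. Myl9, a regulatory chain of smooth muscle, was at 97.9, 108, 145 and 125 CPM in CMS7KO 1 to 4, against 80.3, 30.3, 74.8 and 81.7 CPM in ACRE 1 to 4 (edgeR adjusted p = 0.269). Myl12a, a non-muscle regulatory chain, was at 256, 208, 236 and 201 CPM in CMS7KO 1 to 4, against 312, 257, 286 and 360 CPM in ACRE 1 to 4 (edgeR adjusted p = 0.323). The groups did not overlap for either gene, in opposite directions (5.42% of tested genes higher, 4.18% lower). The 8 smooth muscle and pericyte markers summed to 1607 to 1920 CPM in CMS7KO and 1697 to 2067 CPM in ACRE and the fibroblast and macrophage sums as given above, and their part in these values was not tested. Myh10 was at 70.4 ± 6.52 CPM in CMS7KO and 82.4 ± 6.91 CPM in ACRE, and Myl6 at 352 ± 36.3 CPM in CMS7KO and 271 ± 105 CPM in ACRE (SD, n = 4 each). The log2 fold change of Myl6 turned to -0.04 without ACRE 2 and 4.

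Of 14 other sarcomeric heavy and light chains 12 were in the table and 4 were tested. Myl1, a fast skeletal and atrial essential chain, was at 15.4 ± 9.84 CPM in CMS7KO and 25.3 ± 13.6 CPM in ACRE (SD, n = 4 each), and Myh14, in fact a non-muscle heavy chain, at 64.1 ± 9.74 CPM in CMS7KO and 99.2 ± 42.9 CPM in ACRE. Mylpf was at 1.38 ± 0.914 CPM in CMS7KO and 1.04 ± 0.566 CPM in ACRE, and Myl6b at 4.15 ± 1.48 CPM in CMS7KO and 3.34 ± 3.55 CPM in ACRE. The log2 fold changes of Myl1, Myh14, Mylpf and Myl6b were -0.69, -0.63, 0.49 and 0.53. Without ACRE 2 and 4 they were -0.92, -0.03, 0.81 and 1.52, and 0 passed. Myh3, the embryonic heavy chain, was not tested and is named after its values were seen: it had 1, 5, 5 and 9 reads in CMS7KO 1 to 4 and 0 in each ACRE library, where 0 allows up to 3 reads.

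M-band and other thick filament genes had a median log2 fold change of 0.08, with 4 of 7 above 0, and of 0.33, with 6 of 7 above 0, without ACRE 2 and 4. Myom1, an M-band crosslinker, was at 967 ± 167 CPM in CMS7KO and 1609 ± 755 CPM in ACRE, Ttn, the titin gene, at 2836 ± 338 CPM in CMS7KO and 4180 ± 1739 CPM in ACRE, Myom2 at 727 ± 146 CPM in CMS7KO and 1260 ± 850 CPM in ACRE, and Obsl1 at 221 ± 24.2 CPM in CMS7KO and 191 ± 30.4 CPM in ACRE (SD, n = 4 each). The log2 fold changes of Ttn and Myom2 turned to 0.05 and 0.48 without ACRE 2 and 4, and that of Myom1 was -0.03. Genes of myosin folding, assembly and turnover had 12 of 12 log2 fold changes below 0 (median -0.64), while 8486 of 16780 tested genes were below 0. This count rested on ACRE 2 and 4: without them 7 of 12 were above 0 and the median was 0.02. Trim63 and Trim55, muscle RING-finger ubiquitin ligases, were at 69.2 ± 15.2 CPM in CMS7KO against 131 ± 60.2 CPM in ACRE and at 49.2 ± 8.04 CPM in CMS7KO against 98.1 ± 50.9 CPM in ACRE. The ligase Fbxo32 was at 51.0 ± 7.63 CPM in CMS7KO and 94.8 ± 48.6 CPM in ACRE, and Cavin4, a muscle caveolar protein, at 39.8 ± 11.3 CPM in CMS7KO and 90.0 ± 60.05 CPM in ACRE (SD, n = 4 each). These 4 were 1.96 to 3.63 times as high in ACRE 2 and 4 as in ACRE 1 and 3, and without ACRE 2 and 4 their log2 fold changes were -0.35, -0.14, -0.07 and 0.03.

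Regulators of the heavy chain genes had 4 of 22 log2 fold changes above 0 and 18 below (median -0.30). This turned, without ACRE 2 and 4, to 12 above 0 and 10 below (median 0.07). Dio2, the deiodinase that activates thyroid hormone, was at 15.2, 26.1, 15.8 and 8.88 CPM in CMS7KO 1 to 4, against 4.21, 7.17, 7.34 and 8.48 CPM in ACRE 1 to 4 (edgeR adjusted p = 0.222). The transcription factor Tbx5 was at 9.70, 5.54, 7.64 and 9.25 CPM in CMS7KO 1 to 4, against 11.2, 23.6, 11.5 and 30.6 CPM in ACRE 1 to 4 (edgeR adjusted p = 0.232). The groups did not overlap for either gene, with Dio2 higher and Tbx5 lower in CMS7KO. In this list 1 of 22 genes was higher without overlap (5.42% of all tested genes) and 5 were lower without overlap (4.18%): Tbx5, Thrb, Mef2c, Purb and Nfatc3. Dio2 and Tbx5 had log2 fold changes of 1.46 and -0.51 without ACRE 2 and 4. The thyroid hormone receptor Thrb was at 14.97 ± 2.14 CPM in CMS7KO and 22.6 ± 6.13 CPM in ACRE, and Nfatc4 at 17.6 ± 2.53 CPM in CMS7KO and 11.6 ± 3.59 CPM in ACRE (SD, n = 4 each). Without ACRE 2 and 4 the log2 fold change of Thrb moved from -0.59 to -0.30 and that of Nfatc4 from 0.60 to 0.29.

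RNAs from the heavy chain loci varied against their genes across libraries. Mir208b, a hairpin of 77 bases within an intron of Myh7, had 275, 222, 270 and 224 reads in CMS7KO 1 to 4 and 731, 238, 561 and 123 reads in ACRE 1 to 4. These are reads that touch the hairpin's stretch and not the mature microRNA printed above. Per 100 Myh7 reads they came to 3.12, 2.29, 2.68 and 2.72 in CMS7KO 1 to 4 and to 6.04, 3.75, 6.82 and 0.925 in ACRE 1 to 4. Mhrt, the long noncoding RNA antisense to Myh7, came to 15.3, 11.1, 13.2 and 15.6 reads per 100 Myh7 reads in CMS7KO 1 to 4 and to 26.0, 22.5, 24.8 and 4.00 in ACRE 1 to 4. For both, CMS7KO lay between ACRE 4, the lowest, and the other 3 ACRE libraries. Mir208a had 3 to 31 reads per library and Mir499 had 1 read in all. By genotype, edgeR adjusted p was 0.402 for Mir208b, 0.548 for Mhrt and 0.492 for Mir208a. Without ACRE 2 and 4 Mir208b passed (log2 fold change -1.26, edgeR adjusted p = 0.0233), and Mhrt did not (-0.91, edgeR adjusted p = 0.147). In that fit 0.979% of all genes passed.

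The interaction of genotype and sex label passed for 0 of 16780 genes (0%; edgeR, 178 at an unadjusted p under 0.05), with unadjusted p of 0.106 to 0.892 for the 10 members. Myl4 had the smallest, with a log2 fold change of 0.13 among libraries labelled male and 1.11 among those labelled female, 2 per group and label. Without ACRE 3 and CMS7KO 3, whose label goes against their Y-linked transcripts, 0 members passed and the log2 fold changes of Myh6, Myl4 and Myl7 were -1.16, 0.45 and 2.73.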

How the data were processed

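The authors deposited raw read counts, whole numbers without normalization, for every gene, with 1 column per heart and a gene length in bases. Per the submitters' processing notes the tools were HTSeq 0.6.1, TopHat2 2.0, CASAVA and Cufflinks 2.1.1, with GRCm38.p6 and mm10 as builds. The notes give no roles, strand setting or annotation. Of 52073 identifiers shared with GENCODE M21 on GRCm38, 2.85% had the same start, so gene positions follow the table and name no build, while RefSeq sequences carry GRCm38.p6 positions.

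Tests used DESeq2 1.42.0, edgeR 4.0.16 and limma 3.58.1 under R 4.3.3. The filter (filterByExpr on genotype and sex label) left 16780 genes. TMM factors were 0.803 to 1.13. Differences by genotype (CMS7KO minus ACRE) come from robust quasi-likelihood F tests of edgeR, the labelled sex being a covariate (5 residual degrees of freedom). Benjamini-Hochberg adjustment covered every gene in the fit, with 0.05 as threshold. The SE is the log2 fold change over the square root of F. Ratios had 0.5 reads added to both counts before the log2 and were tested by two-sided exact permutation over 70 assignments of the 8 libraries. The fit was tested on simulated data. Those data held no outlying libraries such as ACRE 2 and 4, so that test does not cover them. A count of 0 was taken to allow 3 reads, and intervals cover counting error only or, for folds, the spread between libraries. Every 2 libraries differed beyond sampling noise (chi-square per degree of freedom at least 17.5). The members, lists, ratios and the rule for named genes (all members, the 4 smallest p per list, the 5 genes most like Myh6 and Myh7) were chosen with earlier results of these data known. P values measure the spread between these samples only.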

Additional observations from a re-analysis of the deposited data

How the results depend on the processing

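Results were recomputed under 21 other settings, of which 3 (leaving out ACRE 2 and 4, leaving out ACRE 3 and CMS7KO 3, and an offset for GC content and length) were chosen after seeing the data. Of 208 recomputed log2 fold changes of members 201 kept their sign and stayed short of the threshold. Those of Mybpc3, Mybpc2 and Mylk3 turned to 0.30, 0.32 and 0.48 without ACRE 2 and 4, that of Myh7 to 0.10 without ACRE 4 (range -0.44 to 0.10 with 1 library left out), and that of Myl2 to 0.0015 with plain library sizes, a scaling that moved the median of all genes by 0.15. With no filter on low counts 2 members passed, Myh6 and Mylk3, and 1368 of 32514 genes in all (4.21%), and the cause was not tested. The 6 genes called over the whole table became 484 with DESeq2 (2.88% of genes, 0 members) and 3 with the replicate block (0.0179% of genes, 0 members). Without ACRE 2 and 4 they became 175 (0.979% of genes), with Mylk2 and Mir208b among the genes of the other lists. Without ACRE 3 and CMS7KO 3 the count was 1, and with 1 library left out it was 0 to 17, when 0 members passed. Leaving out CMS7KO 1, 2 or 3 gave 0 genes each (edgeR, 2173, 1532 and 1489 at an unadjusted p under 0.05), leaving out ACRE 2 gave 17 and leaving out ACRE 4 gave 11.

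With 1 library left out, the log2 difference of the Myh7 to Myh6 ratio ranged from 0.37 to 0.87 and passed only without ACRE 1. That of Myl7 to Myl2 ranged from 1.83 to 2.77 and missed this unadjusted threshold without ACRE 4. That of Myl4 to Myl3 ranged from 0.64 to 1.01 and missed it without any of the CMS7KO libraries. Adjusted over the 3 ratios, more of these could miss it. Without ACRE 3 and CMS7KO 3 the last 2 were 2.79 and 0.67 and without ACRE 2 and 4 they were 2.00 and 0.80, where so few libraries cannot pass. With the replicate block their values were 2.43 and 0.83 with an exact permutation p of 0.125, the smallest that 4 pairs can give. Same-numbered libraries had correlations of deviations of -0.17, -0.19, 0.12 and 0.20, and 2 of 4 CMS7KO libraries matched their own number best. Myl7 rests on at most 22 reads per library, so depth limits it. Myl4 and Myl7 could not be fitted with a minimum mean of 5 CPM.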
